A study of Mus musculus with 8 samples.

Results

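The genes described here are the 9 mouse genes whose products make hydrogen sulfide or oxidize it. They were taken from the count table of an islet RNA-seq experiment by matching the Ensembl identifier of each row to a gene symbol. All 9 were found among the 53012 identifiers of the table, and all 9 were among the 15474 genes with enough counts to be tested. The production genes are Cbs, Cth and Mpst. The oxidation genes are Sqor, Ethe1, Tst, Tstd1, Suox and Slc25a10. The rule itself uses no measured value, but the 9 genes were proposed with earlier results of these data known.

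Hydrogen sulfide is a gas that cells make from sulfur amino acids. Cystathionine beta-synthase (Cbs) and cystathionine gamma-lyase (Cth) are the consecutive enzymes of transsulfuration, which passes sulfur from homocysteine to cysteine, and both release sulfide in side reactions, whereas 3-mercaptopyruvate sulfurtransferase (Mpst) takes its sulfur from a keto acid of cysteine. In mitochondria, sulfide quinone oxidoreductase (Sqor) passes the electrons of sulfide to coenzyme Q and its sulfur to glutathione. There the dioxygenase Ethe1 turns the persulfide into sulfite, the rhodanese Tst moves sulfur between these carriers and thiosulfate, and sulfite oxidase (Suox) makes sulfate. Tstd1 is a further rhodanese, which moves sulfur between thiosulfate and glutathione. Slc25a10 is the dicarboxylate carrier of the inner mitochondrial membrane, which also transports thiosulfate, sulfite and sulfate. In islets, sulfide has been studied mainly as an inhibitor of insulin release and as a signal under stress of the β-cell.

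Islets of 4 βIgf1r and 4 βIgf1rKD mice, all 17 months old, were sequenced in bulk with a separate library for each mouse. All mice carried Igf1r flox/flox, in which an exon of the IGF1 receptor gene is flanked by loxP sites. The βIgf1rKD mice were Ins1-CreERT2 +/- and were given tamoxifen, 5 injections of 0.075 mg/g, and the βIgf1r mice were Ins1-CreERT2 -/- and received corn oil, with islets taken 7 days after the last injection. Cre, tamoxifen and the intended deletion belong to the same 4 mice, so their effects cannot be told apart. The study's methods describe the promoter of the Cre as a rat insulin promoter, whereas the genotype is written Ins1-CreERT2. Both sexes were used and are not marked for each mouse. The βIgf1r mice are called M148, M151, M152 and M153 here, and the βIgf1rKD mice M145, M146, M149 and M150.

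Total estimated counts lay between 21633925 and 42391106 per mouse. Igf1r, the targeted gene, measured 53.6 ± 7.21 CPM, counts relative to the scaled size of the library, in βIgf1r and 50.7 ± 5.0 CPM in βIgf1rKD islets (mean ± SD, n = 4 each), a log2 fold change of -0.08 (SE 0.11, unadjusted p = 0.483 by edgeR's quasi-likelihood test, adjusted p = 0.988). Whole-gene counts also hold reads from exons outside the floxed part and from islet cells other than β-cells, so this value does not measure the deletion. The study reported lower Igf1r mRNA by qPCR and lower IGF1R protein by Western blotting in βIgf1rKD islets. Those groups of mice differed in size and age range from the ones sequenced. The 10 β-cell markers of a written list summed to 146188 to 202896 CPM in βIgf1r and 127261 to 187821 CPM in βIgf1rKD mice. Of these markers, 4 had a fitted log2 fold change above 0 and 6 below. By edgeR, 1 was lower at an unadjusted p under 0.05, as were 1.89% of all tested genes. Digestive enzyme genes of acinar cells, which make up the exocrine pancreas around the islets, took 1.93%, 3.26%, 14.1% and 8.17% of the counts in M148, M151, M152 and M153 and 13.4%, 4.02%, 16.2% and 10.8% in M145, M146, M149 and M150. Bulk islet RNA cannot tell fewer cells of a type from less RNA per cell.

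The starts of 3 of the genes are shown because these genes gave the highest levels and differed in base composition. Each line is RefSeq sequence from the GRCm38.p6 build, 5′ to 3′ on the strand of the gene, taken from the 250 bases before an annotated start, with exon bases of the same gene left out. Capitals mark GC boxes, GGGCGG or its reverse complement, a motif bound by factors of the Sp family. The windows are chr10:128674074-128674168 on the minus strand for Suox, chr2:122771463-122771712 on the plus strand for Sqor and chr17:31637239-31637455 on the minus strand for Cbs.
Suox: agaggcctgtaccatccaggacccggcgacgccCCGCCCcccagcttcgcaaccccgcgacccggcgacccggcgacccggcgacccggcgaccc
Sqor: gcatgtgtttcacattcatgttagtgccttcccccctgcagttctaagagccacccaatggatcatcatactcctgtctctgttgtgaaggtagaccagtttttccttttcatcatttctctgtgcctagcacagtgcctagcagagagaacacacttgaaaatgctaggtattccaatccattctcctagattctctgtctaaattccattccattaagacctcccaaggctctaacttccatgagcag
Cbs: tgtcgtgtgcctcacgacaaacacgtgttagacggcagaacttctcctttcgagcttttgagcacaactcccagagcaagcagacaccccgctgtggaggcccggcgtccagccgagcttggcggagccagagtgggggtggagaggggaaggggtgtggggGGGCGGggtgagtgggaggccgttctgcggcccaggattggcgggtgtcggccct

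RefSeq windows were at hand for 7 of the 9 genes, 10 windows in all, and none for Cth and Tst. In the full 250 bases, Suox had 74.4% G and C and a CpG frequency of 1.04 of that expected from its bases, which was the 95.7th percentile of all 32851 mouse windows. Sqor had 44.4% G and C and no CpG at all, and its window lies in an intron of the longer Sqor gene model. Over all windows the median was 52.4% G and C and a CpG ratio of 0.373. GC boxes, read on both strands, were found at 3 of the 7 genes (Suox with 4, Cbs with 2 and Ethe1 with up to 3 in a window) and in 32.7% of all windows. The antioxidant response core TGACNNNGC was found at 2 genes, Mpst and Tstd1, and in 10.2% of all windows. TGATGNAA, the element bound by ATF4 with its C/EBP partners, was found at Sqor and in 3.45% of all windows, TATAAA at Tstd1 and in 12.4%, and the NRF1 motif at none and in 3.74%. Some of these matches lie in annotated exons. Outside the exons of their own gene, the Suox and Cbs windows each kept 1 GC box. The Ethe1 window with 3 GC boxes lies in Ethe1 exons over all 250 bases. The Mpst window with the antioxidant core is Mpst exon over 220 of 250 bases, and the Tstd1 window lies wholly in Usf1 exons. Matches of letters describe the windows and show no binding.

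Tst and Mpst are neighbours on chromosome 15. In GENCODE M21 on GRCm38, Tst lies on the minus strand at chr15:78399556-78405907 and Mpst on the plus strand at chr15:78406416-78414013, with 508 bases and 0 genes between them, so that the pair points in opposite directions. Whether the pair shares a promoter was not tested. The other 7 genes each lie on a chromosome of their own, with Cbs at chr17:31608894-31637238, Cth at chr3:157894248-157925077, Sqor at chr2:122765237-122809569, Ethe1 at chr7:24587543-24608925, Tstd1 at chr1:171418872-171420352, Suox at chr10:128669894-128674073 and Slc25a10 at chr11:120491840-120499187. Tstd1 overlaps Usf1 on the same strand over 200 exon bases, and 16.8% of its 31-base words also occur in Usf1 transcripts, so its few counts are uncertain. Slc25a10 shares 228 exon bases with the antisense gene Gm11788 and Ethe1 shares 99 with Zfp575 on the opposite strand, and 6.29% and 4.75% of their words occur in other genes. For Cbs the share was 6.09%, and for the other 5 genes it was at most 0.562%.

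Levels of different genes were compared per length, as TPM, the estimated count divided by the exon length of the gene and scaled to the same total in every mouse. Suox had the highest level, 44.8 ± 12.3 TPM (SD, n = 8 mice), followed by Sqor with 34.3 ± 7.68 TPM and Cbs with 24.3 ± 4.32 TPM. Slc25a10 (7.35 ± 1.53 TPM), Mpst (6.65 ± 1.03 TPM) and Ethe1 (5.58 ± 1.19 TPM) formed a middle range. Tst (4.04 ± 1.15 TPM), Cth (3.38 ± 1.87 TPM) and Tstd1 (1.98 ± 0.479 TPM) were lowest. Read mouse by mouse, Suox was above Sqor and Cbs was above Slc25a10 in 8 of 8 mice, and Sqor was above Cbs in 7 of 8. The order of Slc25a10 and Mpst held in 5 of 8 mice, that of Tst and Cth in 6 of 8 and that of Cth and Tstd1 in 5 of 8, so these neighbours did not differ beyond their spread. Mpst over Ethe1 and Ethe1 over Tst each held in 7 of 8.

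Among the production genes Cbs held between 66.9% and 75.7% of the summed TPM in every mouse. Of the summed TPM of the 6 oxidation genes, the last enzyme, Suox, held 37.1% to 50.4% and the first, Sqor, 33.4% to 37.5%.

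**Figure D1:**
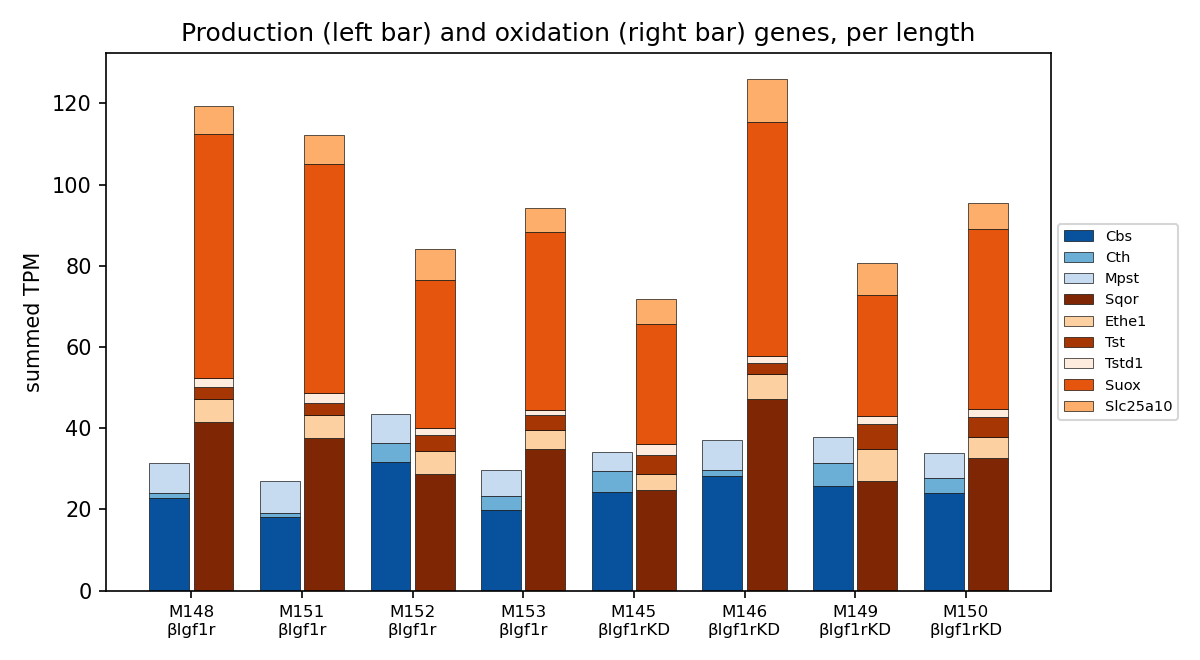
Summed TPM of the 3 production genes (left bar, blue shades) and of the 6 oxidation genes (right bar, orange shades) in each of the 8 mice, with each gene as a segment of the bar. The oxidation bar is the taller of the pair in all 8 mice, and Cbs, Suox and Sqor fill most of the bars.

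Comparing the production with the oxidation genes asked whether the balance of the pathway differed between the groups. Summed production was 31.4, 26.9, 43.6 and 29.7 TPM in M148, M151, M152 and M153 and 34.2, 37.1, 37.9 and 33.9 TPM in M145, M146, M149 and M150. Summed oxidation was 119.3, 112.2, 84.0 and 94.3 TPM in the same βIgf1r mice and 71.7, 126.1, 80.6 and 95.4 TPM in the βIgf1rKD mice. Both sums overlapped between the groups, with M152 holding the highest production and M146 the highest oxidation of all mice. TPM leaves out the library scaling of CPM, whose factors ran from 0.803 in M145 to 1.23 in M148. Over the 8 mice Suox and Sqor spanned 2.04-fold and 1.91-fold in TPM, but 1.25-fold and 1.27-fold in CPM. The oxidation sums therefore also carry library scaling, and their differences between mice do not measure gene level alone. The log2 ratio of oxidation over production was 1.65 ± 0.50 in βIgf1r and 1.35 ± 0.34 in βIgf1rKD islets (SD, n = 4 each), a difference of -0.30 that is within the spread of either group and was given no test. The difference was -0.53 without M152 and -0.16 without M151, and -0.35 with summed CPM in place of TPM. The lowest ratio, 0.95, belonged to the βIgf1r mouse M152 and the next lowest, 1.07 and 1.09, to the βIgf1rKD mice M145 and M149, and these 3 mice also had the largest acinar shares.

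Comparing βIgf1rKD with βIgf1r islets gene by gene asked whether the knockdown came with a change in the genes of sulfide metabolism. None of the 9 genes changed past a threshold. At an unadjusted p under 0.05 in edgeR's quasi-likelihood test, 0 of 9 were called, where 637 of the 15474 tested genes (4.12%, with 2.23% higher and 1.89% lower in βIgf1rKD islets) were, and at an adjusted p under 0.05, 0 genes were called in the whole table, where the smallest adjusted p was 0.948. DESeq2 called 8 genes of the table and limma-voom 1 at an adjusted p under 0.05, none of them among the 9. No gene of the 9 had groups free of overlap, against 2.22% of all tested genes. All but Suox, 8 of 9, had a fitted log2 fold change above 0, which was the case for 52.3% of all tested genes, and the median was 0.38 over the 9 genes, 0.37 over the 3 production genes, 0.39 over the 6 oxidation genes and 0.01 over all tested genes. With each mouse left out in turn, the share of all tested genes at an unadjusted p under 0.05 was 2.44%, 4.76%, 7.07% and 2.56% without M148, M151, M152 and M153 and 2.97%, 6.14%, 3.75% and 5.34% without M145, M146, M149 and M150, and genes of the 9 were called in the fits without M152, M146 and M150 and in no other of these. These counts and medians describe the 9 genes and test nothing about them. From a Reactome pathway analysis of this RNA-seq, the study reported higher expression of sulfide oxidation to sulfate in βIgf1rKD islets. That analysis was not repeated here, and calls of single genes are a different measure from a pathway result.

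**Figure D2:**
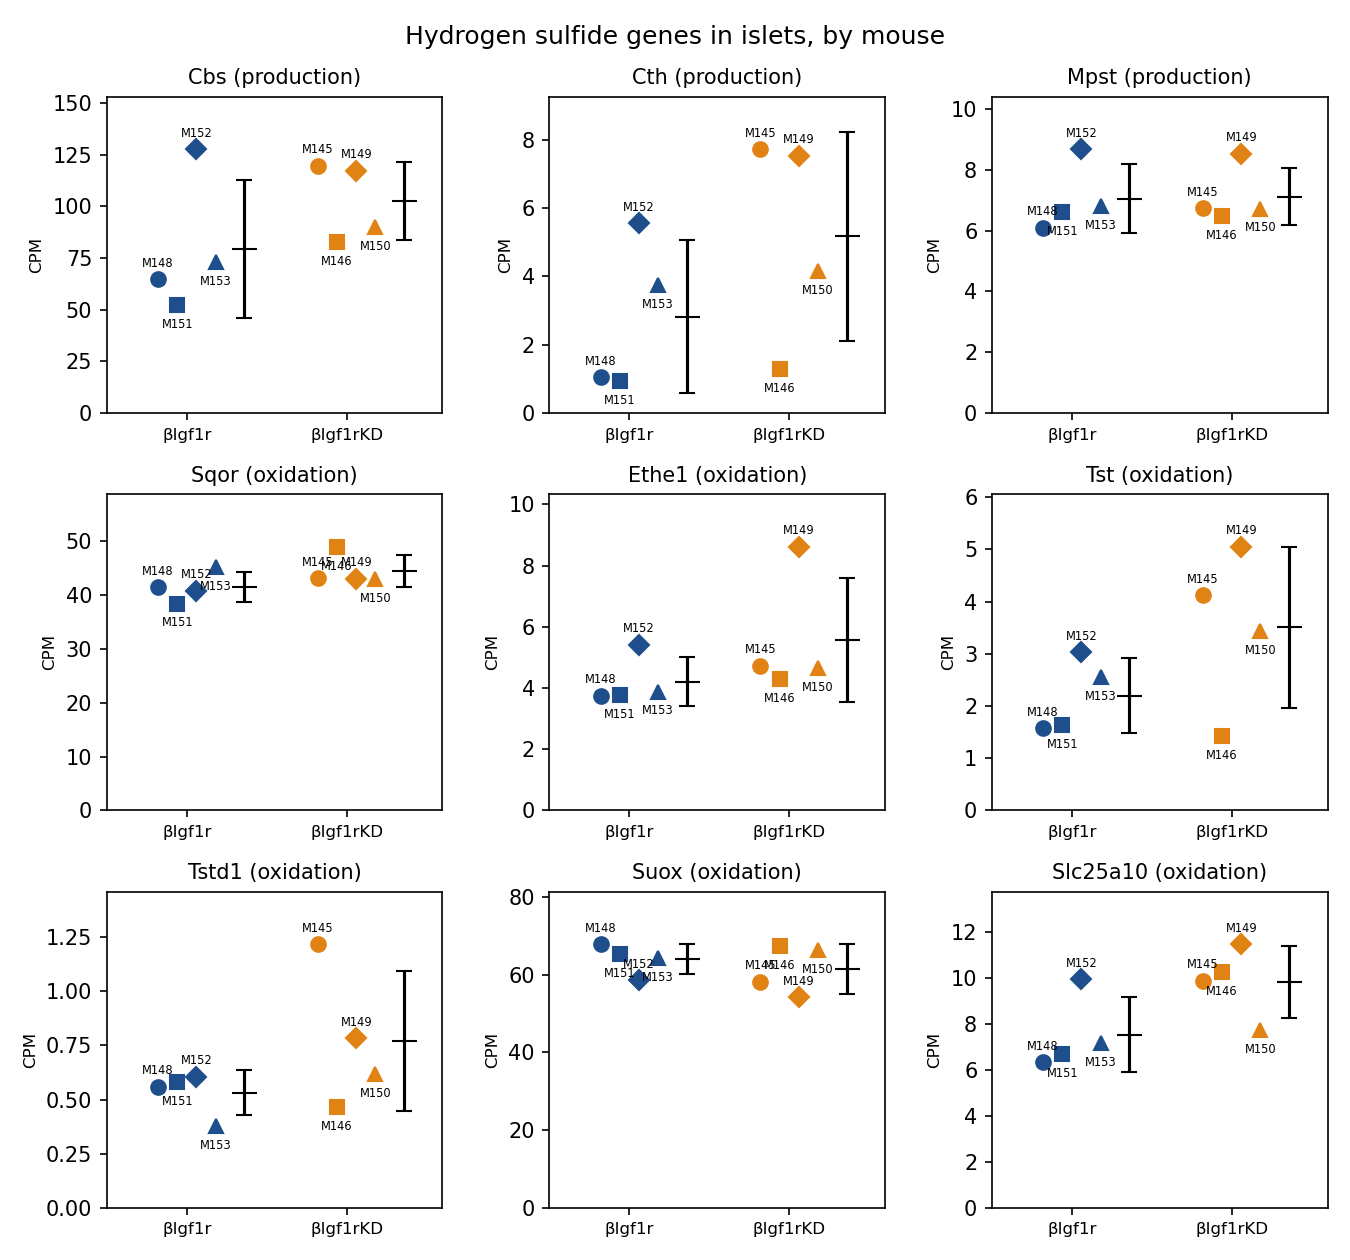
CPM of each of the 9 genes (y axis, from 0) in the 4 βIgf1r mice (blue) and the 4 βIgf1rKD mice (orange), with 1 point per mouse and the mean ± SD beside each group. The groups overlap for all 9 genes, and Cth has the widest spread among mice while Sqor and Suox have the narrowest.

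Of the production genes, Cbs was the most abundant. It measured 64.7, 52.2, 127.6 and 72.9 CPM in M148, M151, M152 and M153 and 119.7, 82.7, 117.3 and 90.0 CPM in M145, M146, M149 and M150. The highest mouse of all was M152, a βIgf1r mouse, and the other 3 βIgf1r mice lay below all 4 βIgf1rKD mice. The means were 79.4 ± 33.3 and 102.4 ± 18.8 CPM, a log2 fold change of 0.37 (SE 0.26, unadjusted p = 0.184, adjusted p = 0.987 over all genes by edgeR), and an exact permutation test of log2 CPM gave p = 0.2. Without M152 the log2 fold change of Cbs was 0.69 (SE 0.17, unadjusted p = 0.00261, adjusted p = 0.666 by edgeR) and the groups did not overlap. In that fit, 7.07% of all tested genes passed the unadjusted threshold. In the set without M152, 1215 of the 15474 tested genes had groups free of overlap, against 344 with every mouse kept. Without M151 the log2 fold change of Cbs was 0.21 (unadjusted p = 0.407 by edgeR).

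Cth, the enzyme that follows Cbs, varied most. Its level was 1.04, 0.946, 5.55 and 3.74 CPM in the βIgf1r mice M148, M151, M152 and M153 and 7.72, 1.29, 7.53 and 4.14 CPM in the βIgf1rKD mice M145, M146, M149 and M150. The mice M148, M151 and M146, from both groups, lay near 1 CPM and the other 5 well above it, so the groups overlapped over most of their range. The log2 fold change was 0.88 (SE 0.66, unadjusted p = 0.216, adjusted p = 0.987 by edgeR), with 26 to 173 counts per mouse. It was 0.59 without M151 and 1.46 without M152 (unadjusted p = 0.398 and 0.0626 by edgeR). Cth spanned 7.67-fold between the lowest and the highest mouse, and its SD within groups was at the 97.6th percentile of all tested genes.

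Mpst did not differ beyond its spread. It measured 6.10, 6.62, 8.69 and 6.82 CPM in M148, M151, M152 and M153 and 6.74, 6.50, 8.53 and 6.73 CPM in M145, M146, M149 and M150. One mouse of each group, M152 and M149, stood above the others, and the other 6 mice lay within 1 CPM of each other. The log2 fold change was 0.01 (SE 0.15, unadjusted p = 0.930 by edgeR), and its sign turned to -0.18 when counts were scaled by library size alone, a scaling that moved the median of all genes by -0.20.

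Of the oxidation genes, Sqor, the entry enzyme, and Suox, the final enzyme, varied least among mice in CPM, though not in TPM. Sqor measured 41.4, 38.4, 40.7 and 45.2 CPM in M148, M151, M152 and M153 and 43.0, 48.9, 43.0 and 42.9 CPM in M145, M146, M149 and M150. The log2 fold change was 0.10 (SE 0.08, unadjusted p = 0.213 by edgeR, exact permutation p = 0.2), and it was -0.08 with library size alone. M153 lay within the βIgf1rKD range and the other 3 βIgf1r mice below it. Without M153, the groups no longer overlapped. In that set, 569 of the 15474 tested genes had groups free of overlap, against 344 with every mouse kept.

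Suox was the single gene of the 9 with a lower fitted level in βIgf1rKD islets. It measured 67.8, 65.3, 58.6 and 64.3 CPM in the βIgf1r mice and 58.2, 67.4, 54.2 and 66.4 CPM in the βIgf1rKD mice, each in the order used above. The lowest values belonged to M149, M145 and M152, the 3 mice with the largest acinar shares. Its log2 fold change was -0.06 (SE 0.09, unadjusted p = 0.544, adjusted p = 0.988 by edgeR). Sqor spanned 1.27-fold and Suox 1.25-fold over the 8 mice, and their SDs within groups were at the 8.71th and 19.7th percentiles of all tested genes. In TPM, which is not TMM-scaled, they spanned 1.91-fold and 2.04-fold, more than Mpst (1.68-fold), Cbs (1.75-fold) and Slc25a10 (1.79-fold).

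Slc25a10, the carrier, had the smallest p of the 9 genes. It measured 6.34, 6.69, 9.93 and 7.16 CPM in M148, M151, M152 and M153 and 9.87, 10.2, 11.4 and 7.72 CPM in M145, M146, M149 and M150. All βIgf1r mice but M152 lay below the βIgf1rKD mice, and M152 lay among them. The means were 7.53 ± 1.64 and 9.82 ± 1.55 CPM, a log2 fold change of 0.38 (SE 0.17, unadjusted p = 0.0542, adjusted p = 0.987 by edgeR), and the exact permutation test gave p = 0.0857. Without M152 the log2 fold change was 0.54 (unadjusted p = 0.00587, adjusted p = 0.666 by edgeR), without M150 it was 0.48 (unadjusted p = 0.0211, adjusted p = 0.884, in a fit where 5.34% of all genes passed), and with no filter on low counts the unadjusted p was 0.0466, in a fit where 3.96% of genes passed.

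Ethe1, the persulfide dioxygenase, had 1 high mouse in each group. It measured 3.75, 3.78, 5.41 and 3.89 CPM in M148, M151, M152 and M153 and 4.73, 4.28, 8.62 and 4.66 CPM in M145, M146, M149 and M150. M152 was the highest βIgf1r mouse and M149 the highest βIgf1rKD mouse, and without M152 the groups did not overlap. In that set, 1215 of the 15474 tested genes had groups free of overlap, against 344 with every mouse kept. With every mouse kept, the log2 fold change of Ethe1 was 0.40 (SE 0.25, unadjusted p = 0.135, adjusted p = 0.987 by edgeR), and it was 0.11 without M149.

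The rhodanese Tst measured 1.57, 1.64, 3.03 and 2.56 CPM in M148, M151, M152 and M153 and 4.12, 1.43, 5.05 and 3.43 CPM in M145, M146, M149 and M150. The other βIgf1rKD mice lay above every βIgf1r mouse, while M146 was the lowest of all 8. Without M146, 898 of the 15474 tested genes had groups free of overlap, against 344 with all 8 mice. The log2 fold change was 0.67 (SE 0.38, unadjusted p = 0.105, adjusted p = 0.987 by edgeR), and without M146 it was 0.93 (unadjusted p = 0.00866, adjusted p = 0.807), in a fit where 6.14% of all genes passed. Its divergent neighbour Mpst had no such pattern, and the log2 ratio of Tst over Mpst in TPM ran from -1.49 in M146 to -0.02 in M145, with means of -1.04 ± 0.30 in βIgf1r and -0.47 ± 0.70 in βIgf1rKD islets.

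Tstd1, a small single-domain rhodanese, had the fewest counts, 8 to 26 per mouse. It measured 0.559, 0.582, 0.605 and 0.379 CPM in the βIgf1r mice and 1.22, 0.464, 0.784 and 0.617 CPM in the βIgf1rKD mice, in the same order. M145 held the highest value and M153 the lowest, and no difference between the groups was detected (log2 fold change 0.50, SE 0.34, unadjusted p = 0.177, adjusted p = 0.987 by edgeR). Without M146 the log2 fold change was 0.68 and the groups did not overlap, and without M145 it was 0.21. In the set without M146, 898 of the 15474 tested genes had groups free of overlap, against 344 with all 8 mice.

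The mice that were high for Cth, Tst and Cbs were those with the most acinar RNA. An acinar score was computed as the log2 of the summed CPM of 15 acinar markers, among them the digestive enzymes Cela1, Cpa1, Pnlip and Ctrb1. The score was 13.94, 14.70, 17.25 and 16.35 in M148, M151, M152 and M153 and 17.36, 15.06, 17.57 and 16.78 in M145, M146, M149 and M150. The mice M148, M151 and M146 thus lay apart below the other 5. All 15 markers had a fitted log2 fold change above 0 in βIgf1rKD islets (median 0.91), none with an unadjusted p under 0.05, and none was at 0 in any group.

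Across the 8 mice, log2 CPM of Cth followed the acinar score with r = 0.98 (exact permutation p = 2.23e-04, adjusted p = 0.0121 over 54 relations) and rho = 0.95 (exact permutation p = 0.00114, adjusted p = 0.0308). With M148 and M151 left out, the mice farthest from the median score, r was 0.99, a value that still rests on M146 against the 5 high mice. Among those 5 mice alone, Cth was 3.74 CPM at the lowest score, 4.14 and 5.55 CPM at the next, and 7.72 and 7.53 CPM at the highest. Tst gave r = 0.93 (exact permutation p = 0.00169, adjusted p = 0.0304) and rho = 0.90 (exact permutation p = 0.00456, adjusted p = 0.0493), with r = 0.95 without those mice. Cbs gave r = 0.86 and rho = 0.86 (exact permutation p = 0.00903 and 0.0107, adjusted p = 0.0628 and 0.0526), with r = 0.76 without them.

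Ethe1 ranked with the score, rho = 0.95 (exact permutation p = 0.00114, adjusted p = 0.0308), but its r of 0.71 did not pass (exact permutation p = 0.0266, adjusted p = 0.0872) and was 0.62 without M148 and M151. Suox ran the other way with r = -0.80 and rho = -0.88 (exact permutation p = 0.0202 and 0.00724, adjusted p = 0.0805 and 0.0526), with r = -0.83 without those mice. Sqor gave r = 0.09 over the 8 mice (exact permutation p = 0.843) and -0.90 without M148 and M151, so its relation to the score turned on those mice. Mpst (r = 0.73), Slc25a10 (r = 0.68) and Tstd1 (r = 0.49) had adjusted p of 0.122, 0.181 and 0.337 by the same exact permutation test, and r of 0.64, 0.21 and 0.67 without those mice. Of the 36 pairs among the 9 genes, 26 had r above 0, with a median of 0.50. By r a single pair, Tst and Cth, passed the adjustment (r = 0.96, exact permutation p = 0.00124, adjusted p = 0.0304), but by rank this pair did not (rho = 0.86, adjusted p = 0.0526 by the exact permutation test). By rank, Cbs passed with Cth and with Ethe1 (rho = 0.90 and adjusted p = 0.0493 for each by the exact permutation test).

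**Figure D3:**
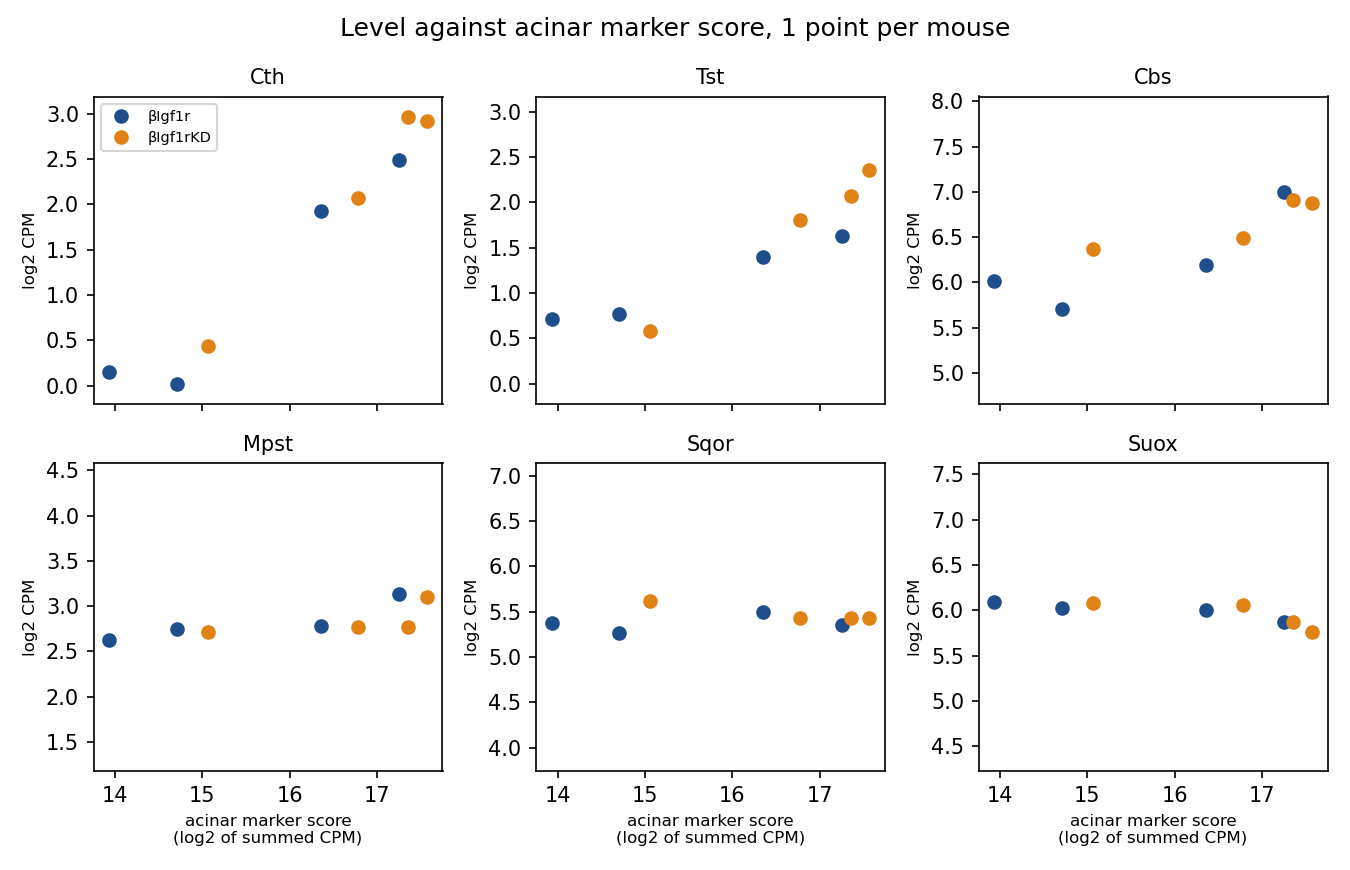
log2 CPM of 6 of the genes (y axis, each panel spanning the same number of log2 units) against the acinar marker score (x axis, log2 of summed CPM), with 1 point per mouse, βIgf1r in blue and βIgf1rKD in orange. Cth and Tst climb from the 3 mice with scores up to 15.06 to the 5 mice above 16, Cbs does so less steeply, and Sqor and Suox stay nearly flat.

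Fitted by edgeR with the group in the model, Cth rose by 0.90 log2 units for each unit of the acinar score (SE 0.10, unadjusted p = 6.86e-06, adjusted p = 0.00159). It was the single gene of the 9 past an adjusted p of 0.05 for this slope, which 1.11% of all tested genes passed upward and 0 downward. At an unadjusted p of 0.05, 3.92% passed upward, among them Cth, Tst, Cbs and Mpst. The slopes of Tst, 0.44 (SE 0.10, adjusted p = 0.110), and Cbs, 0.27 (SE 0.07, adjusted p = 0.171), did not pass over all genes, nor did those of Mpst, 0.12, Suox, -0.07, and Sqor, -0.01. With the acinar score as a covariate, the log2 fold change between the groups was -0.03 for Cth (SE 0.24), 0.11 for Cbs (SE 0.17), 0.11 for Tst (SE 0.26), 0.17 for Ethe1 (SE 0.24) and -0.12 for Mpst (SE 0.14). It was 0.27 for Slc25a10 (SE 0.17, unadjusted p = 0.151 by edgeR), 0.12 for Sqor (SE 0.09) and 0.03 for Suox (SE 0.08). In that fit 0 of the 9 genes and 2.48% of all genes passed an unadjusted p of 0.05. The share of the group differences that comes with acinar RNA was not tested beyond this covariate.

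**Figure D4:**
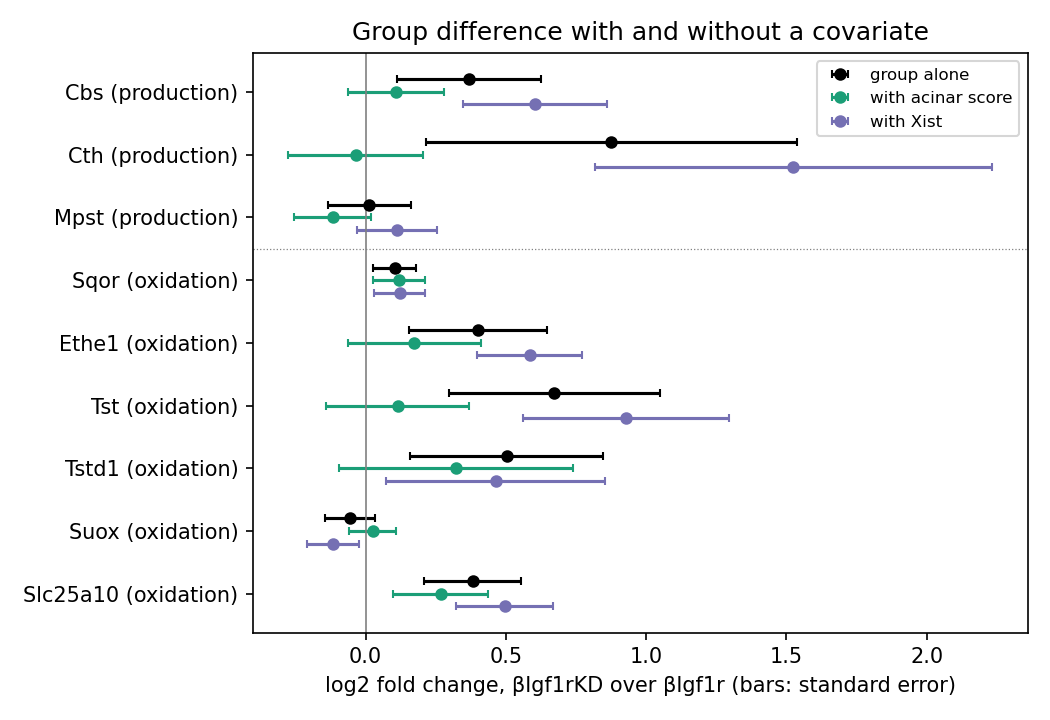
Fitted log2 fold change of each of the 9 genes, βIgf1rKD over βIgf1r (x axis, log2), with bars for the standard error, from the fit with the group alone (black), with the acinar score as a covariate (green) and with Xist as a covariate (purple). With the acinar score Cth moves from 0.88 to -0.03 and Tst from 0.67 to 0.11, whereas Sqor stays near 0.10 in all 3 fits.

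Xist, the RNA that coats the inactive X chromosome, was above 5 log2 CPM in 1 of 4 βIgf1r and 3 of 4 βIgf1rKD mice, so the groups were not balanced for it. With Xist as a covariate 4 of the 9 genes passed the unadjusted threshold, all higher in βIgf1rKD islets, in a fit where 7.39% of all genes passed and 4.71% passed upward. By edgeR, Cbs had a log2 fold change of 0.60 (unadjusted p = 0.0446, adjusted p = 0.662), Ethe1 of 0.58 (unadjusted p = 0.0133, adjusted p = 0.657), Tst of 0.93 (unadjusted p = 0.0336, adjusted p = 0.657) and Slc25a10 of 0.50 (unadjusted p = 0.0195, adjusted p = 0.657). With Xist and the acinar score together, 0 of the 9 genes and 3.13% of all genes passed. Of the other cell types, endothelial markers had a fitted log2 fold change below 0 for 11 of 11 tested, 6 of them at an unadjusted p under 0.05, with summed levels of 483.0 to 586.0 CPM in βIgf1r and 420.0 to 466.4 CPM in βIgf1rKD mice and no overlap, and none of the 9 genes followed their score past the adjustment. Taken singly, 5 of these markers were lower without overlap. Over all tested genes, 1.89% were lower at that threshold and 1.27% were lower without overlap. With the endothelial score as a covariate the log2 fold change was 0.73 for Cbs (SE 0.59), 1.7 for Cth (SE 1.66), 0.87 for Ethe1 (SE 0.48), 1.14 for Tst (SE 0.82) and 0.13 for Tstd1 (SE 0.73). It was 0.13 for Mpst (SE 0.32), 0.21 for Sqor (SE 0.17), -0.09 for Suox (SE 0.20) and 0.46 for Slc25a10 (SE 0.39). Because this score did not overlap between the groups, these fits cannot tell the score from the group. Macrophage markers were above 0 for 7 of 8 (median 0.50, 2 at an unadjusted p under 0.05), duct markers for 5 of 6 (median 0.61) and glial markers for 0 of 5 (median -0.39). Their summed levels were 117.8 to 169.1, 196.6 to 242.3 and 10.6 to 13.9 CPM in βIgf1r and 136.0 to 288.1, 216.5 to 303.4 and 8.62 to 12.5 CPM in βIgf1rKD mice. Stromal markers were above 0 for 5 of 9 (median 0.20, 1 lower at an unadjusted p under 0.05). Alpha markers were above 0 for 2 of 5 (median -0.14) and delta markers for 0 of 3 (median -0.21). The part of all these cells in the values of the 9 genes was not tested.

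Genes of neighbouring pathways were described from written lists of 73 genes, of which 66 were tested, with 36 above and 30 below a log2 fold change of 0, a median of 0.00, and 2 at an unadjusted p under 0.05, both higher. Mat2a, which makes S-adenosylmethionine outside the liver, was higher in βIgf1rKD islets at the unadjusted threshold. It measured 17.4, 15.2, 12.6 and 13.5 CPM in M148, M151, M152 and M153 and 22.4, 16.5, 23.8 and 16.9 CPM in M145, M146, M149 and M150 (log2 fold change 0.43, SE 0.15, unadjusted p = 0.0185, adjusted p = 0.987 by edgeR). The groups overlapped through M148. It was among 10 tested genes of the methionine cycle, the source of homocysteine for Cbs, of which 7 were above 0 and 3 below, with a median of 0.08.

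Ado, a thiol dioxygenase that oxidizes cysteamine, was the other. It measured 7.29, 6.80, 6.62 and 6.73 CPM in the βIgf1r mice and 8.33, 9.0, 8.44 and 7.67 CPM in the βIgf1rKD mice in the same order, without overlap (log2 fold change 0.28, SE 0.10, unadjusted p = 0.0187, adjusted p = 0.987 by edgeR). The exact permutation p was 0.0286, the smallest that 4 against 4 mice allow, and 0.956% of all tested genes lay higher without overlap. Of its 17 tested genes of cysteine supply and use, 11 were above 0 and 6 below, with a median of 0.02.

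No gene passed in the other lists. Of 16 tested genes of sulfur relay and persulfides, 9 were above 0 and 7 below (median 0.03), and the smallest p was that of Mocs3, the sulfur donor of molybdenum cofactor synthesis on which Suox depends (0.21, SE 0.19, unadjusted p = 0.293 by edgeR). Of 10 genes of sulfate use and transport, 3 were above 0 and 7 below (median -0.06), led by the anion exchanger Slc26a6 (0.72, SE 0.37, unadjusted p = 0.0787 by edgeR). Of 13 genes of coenzyme Q, the electron acceptor of Sqor, 6 were above 0 and 7 below (median -0.02), led by Coq3 (0.25, SE 0.18, unadjusted p = 0.195 by edgeR).

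The tested genes whose pattern over the 8 mice was most like that of Cth, by the root mean square difference of centred log2 CPM, were Habp2 (0.185), Galnt6os (0.190), 4930415O20Rik (0.196), Gamt (0.213) and 1810007D17Rik (0.217). Habp2, a secreted serine protease, measured 1.01, 1.2, 4.70 and 3.32 CPM in M148, M151, M152 and M153 and 7.20, 1.5, 8.4 and 4.46 CPM in M145, M146, M149 and M150. Gamt, which makes creatine, ran from 3.25 CPM in M148 to 36.4 CPM in M149. All 5 were low in M148, M151 and M146, the 3 mice with the lowest acinar scores. They were picked for likeness to Cth, which was itself low in these mice, so this follows from the choice.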

How the data were processed

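RNA-seq of islets from 4 βIgf1r and 4 βIgf1rKD mice was analysed, with groups and mouse numbers taken from the sample labels. The authors deposited estimated counts per Ensembl gene, not scaled between mice. The submitters' processing notes name fastp, kallisto and GRCm38 without versions, and the protocol a stranded mRNA kit, and how transcripts were summed to genes is not given in the sources used here. Of 53012 identifiers, 51906 matched a symbol.

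Estimated counts were rounded to whole numbers and filtered with edgeR 4.0.16 (minimum count 10 in at least 4 mice, minimum total 15), which kept 15474 genes. Libraries were scaled by TMM, and the groups were compared in R 4.3.3 by the quasi-likelihood test of edgeR, with p-values adjusted by Benjamini-Hochberg over all tested genes. The SE is the log2 fold change divided by the square root of its F. CPM is TMM-scaled, and a prior count of 2 was added for log2 CPM. TPM used the union of exons of each gene in GENCODE M21, and 1106 identifiers without a gene model there (at most 0.391% of a mouse's counts) were left out of it. Single genes were also compared by exact two-sided permutation of log2 CPM over 70 assignments, with a smallest p of 0.0286. Correlations were tested over all 40320 pairings. The separate samples are labelled as separate mice.

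The 9 genes and the lists were chosen with earlier results of these data known. Outside the 9, named genes are those of each pathway list with an unadjusted p under 0.05, or else the smallest p, and the 5 genes most like the member with the widest range. Alternatives were RLE size factors, library size alone, DESeq2 1.42.0, limma-voom (limma 3.58.1), other filters, a prior count of 0.5, covariates and leaving out each mouse. The acinar slope, the joint covariates and another transcript length were added after the data were seen. Scripts were tested on simulated data.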

Additional observations from a re-analysis of the deposited data

Results flagged for a closer look

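Within the groups of 4 mice, a mouse was picked out where its gap to the nearest of the others took more than 0.829 of the range of the group, which chance does in about 1 of 20 sets. Of 20 sets examined, 4 were picked out, where 1 would be expected. The sets come from the same mice and are not independent, with M149 picked out for both Ethe1 and Mpst. The 2 numbers therefore cannot show an excess over chance. Ethe1 stood out in both groups. In βIgf1r islets M152 measured 2.45 log2 CPM, where the other 3 mice lay between 1.93 and 1.98, a gap of 0.905 of the range. In βIgf1rKD islets M149 measured 3.12 log2 CPM, where the others lay between 2.12 and 2.26, a gap of 0.860. Mpst stood out in M149 of the βIgf1rKD group, at 3.10 log2 CPM where the others lay between 2.72 and 2.77, a gap of 0.868. These 2 mice had the largest acinar share of their group, 14.1% in M152 and 16.2% in M149, and M149 also had the highest summed level of macrophage markers, 288.1 CPM against 136.0 to 196.3 CPM in the other βIgf1rKD mice. Their part in these values was not tested.

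Sqor stood out in M146 of the βIgf1rKD group, at 5.61 log2 CPM where the others lay at 5.43, a gap of 0.982 of a narrow range. M146 had the smallest acinar share of its group, 4.02%, and its part was not tested.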

How the results depend on the processing

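Over the results and the alternatives computed for each, 368 of 425 values kept their direction and their side of the threshold or stayed within the spread, 12 came to pass an unadjusted p of 0.05, 15 reversed and 30 moved. With the acinar score as a covariate Cth reversed to -0.0348, Mpst to -0.118 and Suox to 0.0251, the production median reversed to -0.0348 with 1 of 3 production genes above 0, and the oxidation median was 0.15. Library size alone reversed Mpst to -0.178 and Sqor to -0.0797, put the oxidation median at 0.20 and left 2315 in place of 8086 genes above 0. With the acinar score and Xist together Mpst was -0.0375 and the oxidation median 0.20. With each mouse left out in turn, Mpst ranged from -0.0835 to 0.129 (from -0.0710 to 0.121 as a log2 CPM difference), Suox from -0.102 to 0.000802, the production median from 0.21 without M151 to 0.69 without M152, and the oxidation median from 0.21 without M149 to 0.55.

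Of the 9 genes, 1 passed with no filter and 4 with Xist, and 0 to 2 with a mouse left out, with 0 to 3 genes free of overlap. Over all genes, 637 passed an unadjusted p of 0.05 in the fit reported, 1098 with no filter, 384 with the acinar score, 1143 with Xist and 377 (without M148) to 1094 (without M152) with a mouse left out, and 538 to 1215 were free of overlap then. At an adjusted p, 1 gene passed with library size alone, 8 with DESeq2 and 1 with limma-voom. Apart from the settings' own construction, the causes were not tested. A filter of at least 10 counts in every mouse dropped Tstd1. No paired analysis was possible because the groups share no mouse numbers. With 4 mice a group, the SE of 0.66 for Cth was the largest of the 9 genes.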
